A study of Mus musculus with 2 samples.

Results

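Genes by which an epithelial-mesenchymal transition (EMT) is commonly read were followed in 10 rows of the count table, of 49492 in all: the transcription factors *Snai1*, *Snai2*, *Zeb1*, *Zeb2*, *Twist1* and *Twist2*, the filament gene *Vim*, and the classical cadherins *Cdh1*, *Cdh2* and *Cdh3*. They were chosen by name and function, not by a cut on their values, but with earlier results of these data known. All 10 had at least 20 counts over both libraries, as did 17356 genes of the table. The RNA came from mammary basal cells of adult wild-type female mice, sorted as CD24+ CD29 high cells that lacked CD45, CD31 and TER119. The CL basal library came from mice injected repeatedly with clodronate liposomes (CL), vesicles that kill the macrophages which take them up. The Ctrl basal library came from control mice, whose treatment is labelled as none and is saline in the description of the design. Both are labelled day 7, and how many mice were pooled was not given in the sources used here. There was 1 library per group, so the differences have no replicate check, no test was run, and intervals cover counting error only.

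In an EMT, epithelial cells loosen their junctions, lose apical and basal polarity and take on migratory features. The Snail, Zeb and Twist factors bind DNA at E-boxes and turn down *Cdh1* (E-cadherin), while *Vim* and *Cdh2* (N-cadherin) mark the mesenchymal state. Mammary basal cells are epithelial but share part of this programme: *Snai2* (Slug) is linked to the basal lineage, and *Cdh3* (P-cadherin) marks myoepithelial cells, the contractile outer layer of the duct.

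The Ctrl basal library held 37846008 counts and the CL basal library 38962512. The basal label was checked on 14 basal and myoepithelial markers, which were all detected and had a median log2 fold change of 0.06 (CL basal over Ctrl basal throughout, after scaling to library size). Their levels ran from 14.1 to 3126 RPKM (counts scaled to library size and to kilobases of exon) in Ctrl basal and from 12.9 to 3445 in CL basal. Transcripts of other cells were present in both libraries. The luminal keratin *Krt8* stood at 1250 RPKM in Ctrl basal and 766 in CL basal, and 14 of 17 luminal markers were lower in CL basal by at least 1.5-fold, against 11.7% of all tested genes. The luminal factor *Gata3*, picked out after its values were seen, went the other way (952 and 1443 counts, 0.60), as 1 of 17 against 6.33%. In such bulk RNA, fewer cells of a type and less RNA per cell cannot be told apart.

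Differences between the libraries were small for each gene of the EMT list. Of the 10 genes, 0 passed 1.5-fold in either direction, against 11.7% of all tested genes lower and 6.33% higher. The same held at 2-fold, with 0 of the 10 against 4.79% lower and 2.07% higher. At those rates a list of 10 genes with none past the threshold is near the background. The log2 fold changes ran from -0.56 (*Twist2*) to 0.47 (*Twist1*), with 5 genes below 0 and 5 above, and a median of -0.05 against -0.01 over all tested genes. Counting error alone was smaller than the difference for 8 of the 10, since their 95% intervals left out 0, as did those of 50.6% of all tested genes. With counts halved, to allow for mates of a read pair counted separately, this held for 7, and for 35.97% of all tested genes. Each of the 10 values also lay within the middle 95% of genes of like count.

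**Figure D1:**
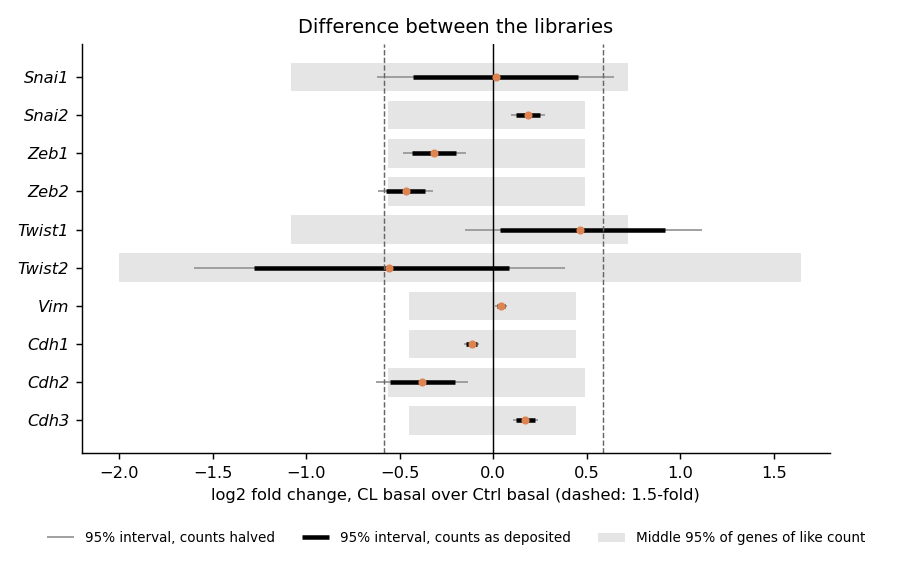
Points give the log2 fold change of each gene (CL basal over Ctrl basal, 1 library each), with exact binomial 95% intervals from the counts as deposited (thick) and halved (thin). Grey bars span the middle 95% of genes in the same class of summed counts and dashed lines mark 1.5-fold. All points fall between the dashed lines and inside the grey bars.

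Levels differed far more between genes than between libraries. In Ctrl basal the order was *Vim* (153 RPKM), *Cdh1* (121), *Snai2* (49.7), *Cdh3* (38.5), *Zeb1* (3.42), *Zeb2* (2.36), *Cdh2* (2.03), *Snai1* (1.42), *Twist1* (1.23) and *Twist2* (0.394). With counts as deposited, only the counting intervals of *Snai1* (1.14 to 1.74) and *Twist1* (0.966 to 1.53) overlapped among neighbours in that order. Level intervals with counts halved, which are wider, were not computed. The first 4 genes thus stood more than 10 times above the other 6. In CL basal the first 5 genes came in the same order, at 158, 112, 56.5, 43.4 and 2.75 RPKM. Below them, *Twist1* (1.71), *Zeb2* (1.70), *Cdh2* (1.56) and *Snai1* (1.43) followed, with intervals that overlapped between neighbours, and *Twist2* (0.262) was again last and apart from them. Among genes with at least 1 count in Ctrl basal, *Vim* stood at percentile 98.6 of level, *Cdh1* at 98.1, *Snai2* at 95.4 and *Cdh3* at 94.0, while *Zeb1* stood at 66.6 and *Twist2* at 34.2.

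**Figure D2:**
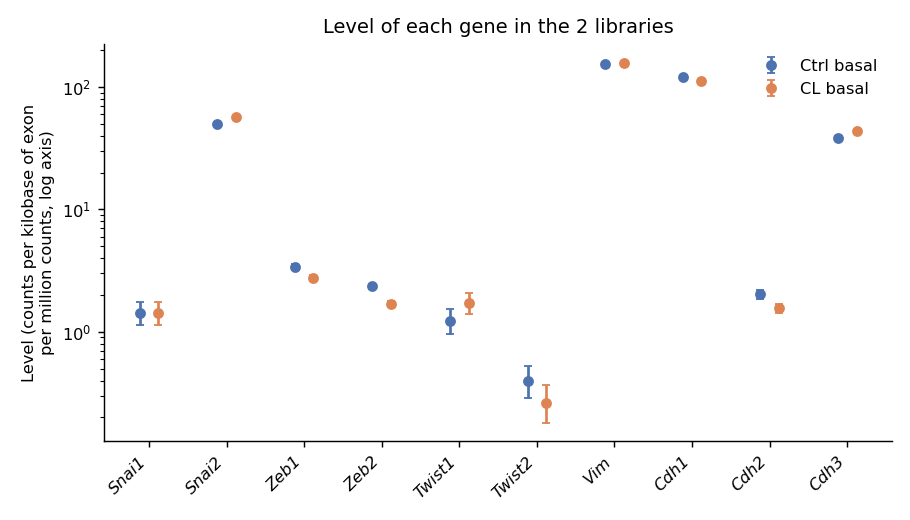
Level of each gene in Ctrl basal and CL basal (RPKM, log axis), with exact Poisson 95% intervals of the counts, which are smaller than the points for the abundant genes. *Vim*, *Cdh1*, *Snai2* and *Cdh3* form an upper group in both libraries, and the other 6 genes lie below 3.5 RPKM.

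*Snai2* was the most abundant of the 6 EMT factors in both libraries. *Snai2* (chromosome 16, 14705852 to 14709395, GRCm38, plus strand) had 3869 counts in Ctrl basal and 4411 in CL basal, which is 0.19 on the log2 scale (95% interval 0.12 to 0.25). It was thus slightly higher in CL basal, and by more than counting error. It made up 53.7% of the reads of the 6 factors in Ctrl basal (exact binomial 95% interval 52.5 to 54.8%) and 62.9% in CL basal (61.8 to 64.0%). Per length of exon its share was larger, 84.9% and 87.8% of the summed level. Its relative *Snai1* (chromosome 2, 167538195 to 167542814, plus strand), the founding Snail factor, was scarce, with 88 counts in Ctrl basal and 89 in CL basal. Its log2 fold change was 0.01, and the interval of -0.43 to 0.45 allows a change of up to about that size in either direction. The level of *Snai2* was 35.1 times that of *Snai1* in Ctrl basal and 39.6 times in CL basal.

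The Zeb factors, zinc finger and homeodomain repressors, were both lower in CL basal by less than 1.5-fold. *Zeb2* (chromosome 2, 44983632 to 45117395, minus strand) had 1803 counts in Ctrl basal and 1306 in CL basal, which is -0.47 on the log2 scale (-0.57 to -0.37). *Zeb1* (chromosome 18, 5591860 to 5775467, plus strand) had 1325 and 1068 counts in the same order, or -0.31 on the log2 scale (-0.43 to -0.20). *Zeb2* was the member with the greatest difference among those with over 1000 summed counts, and both intervals lay wholly below 0. The class of genes with at least 1000 and under 10000 summed counts, to which both belong, had its middle 95% between -0.56 and 0.49, and 2.29% of its 5592 genes were lower by at least 1.5-fold. The share of *Zeb2* in the reads of the 6 factors was 25.01% in Ctrl basal (24.01 to 26.03%) and 18.6% in CL basal (17.7 to 19.6%). Per length of exon it was 4.03% and 2.65% of the summed level, below *Zeb1* at 5.84% and 4.27%. The ratio of *Snai2* to *Zeb2* in level was 21.1 in Ctrl basal and 33.2 in CL basal, and that of *Snai2* to *Zeb1* was 14.5 and 20.6. *Zeb2* shares 467 of its 19942 exonic bases with the opposite-strand transcript *Zeb2os*, which had 21 counts in Ctrl basal and 24 in CL basal. *Zeb1* shares 198 exonic bases with *Gm10125*, which had 12 counts in each library. *Mir5129* (67 and 41 counts) and *Gm27761* (5 and 3) share 5 and 4 exonic bases with *Zeb2*.

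The Twist factors, basic helix-loop-helix proteins best known from mesoderm, were near the limit of what these libraries can compare. *Twist1* (chromosome 12, 33957671 to 33959817, plus strand) had 76 counts in Ctrl basal and 106 in CL basal, or 0.47 on the log2 scale (0.04 to 0.92). The interval held 0 once the counts were halved (-0.15 to 1.12). *Twist2* (chromosome 1, 91801461 to 91848028, plus strand) had 48 and 32 counts, or -0.56 on the log2 scale (-1.28 to 0.09). It went the other way from *Twist1*, but its difference was not detectable at this depth. Of its 3174 exonic bases, 1477 lie opposite *Gm29100*, which had 45 counts in Ctrl basal and 30 in CL basal. Without a stated use of strand, reads on the shared bases cannot be told apart. How many of the counts of *Twist2* lie on its other bases cannot be read from counts per gene.

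**Figure D3:**
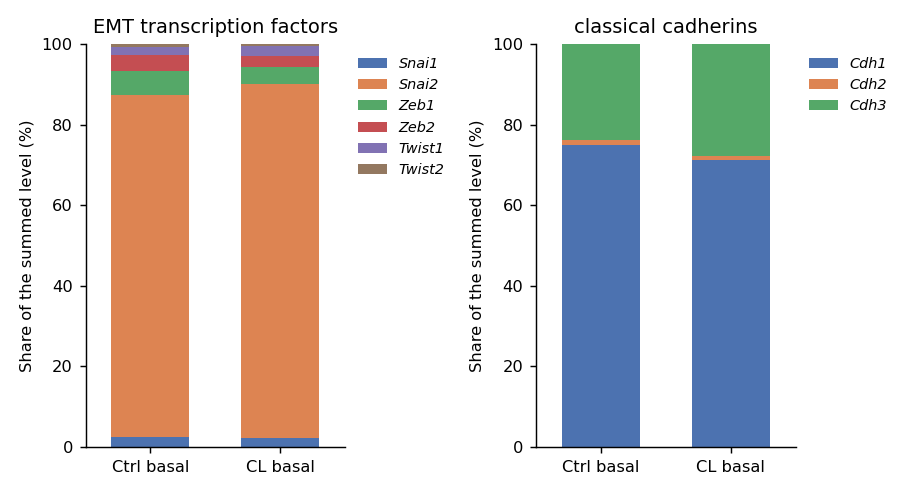
Share of each gene in the summed level (RPKM) of the 6 EMT transcription factors (left) and of the 3 classical cadherins (right), 1 bar per library. *Snai2* fills 84.9% and 87.8% of the left bars, and *Cdh1* fills 74.9% and 71.3% of the right bars.

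*Vim*, an intermediate filament protein of mesenchymal cells that basal cells also make, was the most abundant gene of the list. *Vim* (chromosome 2, 13573927 to 13582826, plus strand) had 27887 counts in Ctrl basal and 28775 in CL basal. Its log2 fold change was 0.04 (0.02 to 0.07). It stayed above 0 with the other scalings, though only at 0.003 with total counts. Its sign turned to -0.04 when differences were taken relative to genes of like abundance, so its direction depends on the processing.

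The cadherins are calcium-dependent adhesion proteins of the adherens junction. E-cadherin joins luminal cells above all, and P-cadherin joins basal cells. *Cdh1* (chromosome 8, 106603351 to 106670246, plus strand) had 21227 counts in Ctrl basal and 19639 in CL basal, or -0.12 on the log2 scale (-0.14 to -0.09). *Cdh3* (chromosome 8, 106510891 to 106557297, plus strand) had 6476 and 7318 counts, or 0.17 on the log2 scale (0.12 to 0.22). These 2 genes thus differed in opposite directions, each by little and each by more than counting error. *Cdh2* (chromosome 18, 16588877 to 16809246, minus strand) had 627 and 483 counts, or -0.38 on the log2 scale (-0.55 to -0.21).

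Within each library, which needs no scaling, *Cdh3* made up 22.9% of the reads of the 3 cadherins in Ctrl basal (22.4 to 23.4%) and 26.7% in CL basal (26.1 to 27.2%). The share of *Cdh1* was 74.9% (74.4 to 75.4%) and 71.6% (71.0 to 72.1%), and that of *Cdh2* was 2.21% (2.05 to 2.39%) and 1.76% (1.61 to 1.92%). The level of *Cdh1* was 3.14 times that of *Cdh3* in Ctrl basal and 2.57 times in CL basal. N-cadherin was minor in both, with a level of *Cdh1* 59.7 and 71.7 times that of *Cdh2*.

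Markers of other cells in the sort moved beside some of these genes. *Zeb1*, *Zeb2* and *Cdh2* were lower in CL basal, as were 12 of 13 fibroblast markers, 7 of 8 pericyte markers and 9 of 11 endothelial markers, against 51.8% of all tested genes. The median log2 fold changes of those lists were -0.49, -0.65 and -0.30. Their summed levels in Ctrl basal and CL basal were 307 and 247 CPM (library-scaled counts, not per length) for the fibroblast list, 386 and 366 for the pericyte list and 569 and 464 for the endothelial list. The pericyte sum is mostly *Mcam* (8887 and 10212 counts), without which its other 7 genes summed to 5909 and 3870 counts. Fibroblast markers ran from 0.212 to 29.5 RPKM in Ctrl basal and from 0.101 to 18.2 in CL basal, and none of the 3 lists had a marker at 0. The part of these cells in the lower values of *Zeb1*, *Zeb2* and *Cdh2* was not tested. Beside the same 3 lists, *Twist2* was lower too (-0.56, with an interval that held 0). *Twist1* was higher (0.47), and *Vim* (0.04) and *Snai1* (0.01) differed little. *Cdh1* was lower beside the luminal list, whose median was -0.86 and whose sum was 4760 CPM in Ctrl basal and 2648 in CL basal. The part of luminal cells in the value of *Cdh1* was not tested either. *Snai2* and *Cdh3* were slightly higher, beside the basal and myoepithelial list at 20464 and 21351 CPM, of which 9 of 14 genes were above 0 and 5 below, among them *Krt5* (-0.23) and *Itgb4* (-0.51). The part of that list in their values was not tested. Macrophage markers were low, with a highest level of 4.83 RPKM (Ctrl basal) and 3.83 RPKM (CL basal), 7 counts of *Adgre1* in Ctrl basal and 10 in CL basal, and the 13 genes of that list summed to 33.4 and 30.9 CPM, with 2 of 9 tested genes lower and 1 higher by at least 1.5-fold, against 11.7% and 6.33% of all tested genes.

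**Figure D4:**
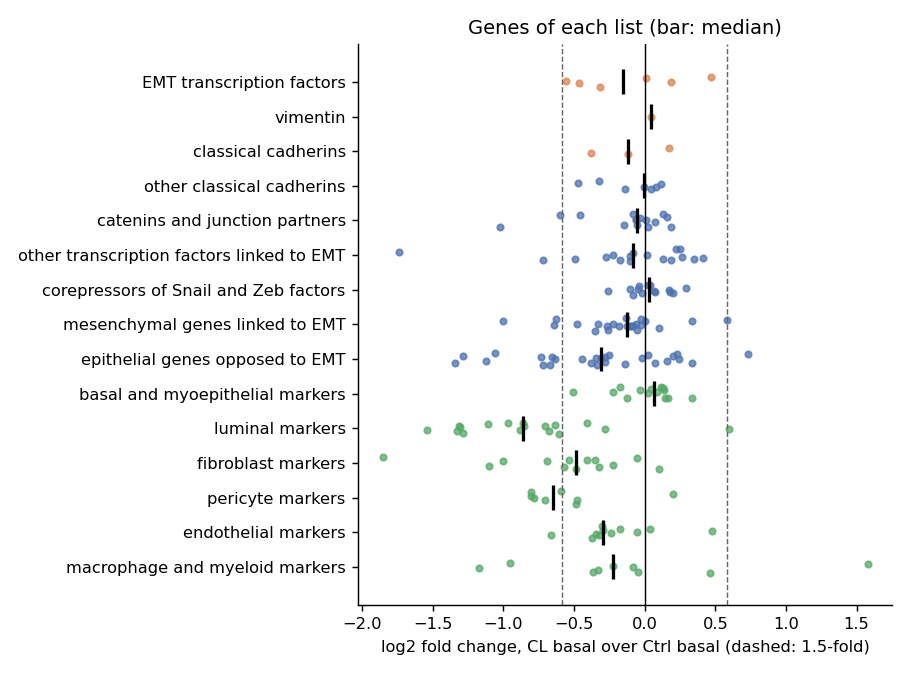
Log2 fold change (CL basal over Ctrl basal) of each tested gene, by list, with the median as a bar and 1.5-fold as dashed lines. The EMT genes (orange) stay inside the dashed lines, while the luminal, fibroblast and pericyte markers lie mostly below 0.

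The other classical cadherins gave 7 tested genes of 15, of which 0 passed 1.5-fold, near the background of 11.7% lower and 6.33% higher. Their median log2 fold change was -0.004. The most abundant was *Cdh5*, the cadherin of endothelial cells and a gene of the endothelial list too, at 40.1 RPKM in Ctrl basal and 32.0 in CL basal (-0.32, interval -0.38 to -0.27). This is close to the level of *Cdh3* in Ctrl basal (ratio of *Cdh3* to *Cdh5* 0.961), although CD31-positive cells had been gated out. *Cdh11*, a mesenchymal cadherin, had 512 and 543 counts (0.08, -0.10 to 0.26). *Cdh24* had 59 and 42 counts (-0.47, -1.10 to 0.10), and *Cdh7*, *Cdh8*, *Cdh12* and *Cdh18* had 0 counts in both.

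Partners that tie cadherins to actin or to neighbouring cells differed about as often as other genes. Of 15 tested catenins and junction partners, 2 were lower by at least 1.5-fold and 0 higher, against 11.7% and 6.33% of all tested genes, with a median of -0.06. *Ctnna1*, alpha-catenin, had 38228 counts in Ctrl basal and 37357 in CL basal (-0.04, -0.06 to -0.02), and *Pkp4*, an armadillo protein of junctions, had 11615 and 13218 (0.18, 0.15 to 0.22). The 2 lower genes were *Nectin4*, an adhesion molecule, with 486 and 239 counts (-1.02, -1.26 to -0.80), and *Arvcf*, a p120-catenin relative, with 425 and 281 counts (-0.60, -0.82 to -0.38).

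Other transcription factors linked to EMT included 17 tested genes, of which 2 were lower and 0 higher by at least 1.5-fold, again near the background of 11.7% and 6.33%, with a median of -0.09. The most abundant were 2 Sox factors, both higher in CL basal by less than 1.5-fold. *Sox4* had 22724 counts in Ctrl basal and 28949 in CL basal (0.35, 0.32 to 0.37), and *Sox9*, which acts in mammary stem and progenitor cells, had 12855 and 15300 (0.25, 0.21 to 0.28). *Etv4* had 224 and 299 counts (0.41, 0.16 to 0.67). The 2 lower genes, picked out after their values were seen, were the scarce *Snai3* (18 and 4 counts) and *Hmga2* (21 and 12 counts). Of the corepressors through which Snail and Zeb factors act, 0 of 14 passed 1.5-fold, which is near the background of 11.7% lower and 6.33% higher, and the median was 0.03. *Kdm1a*, the histone demethylase LSD1, had 7947 and 8360 counts (0.07, 0.02 to 0.11), and *Smarca4*, the chromatin remodelling ATPase BRG1, had 13748 and 13358 (-0.05, -0.08 to -0.01). The extremes were *Eed*, a Polycomb subunit (0.30, 0.22 to 0.37), and *Ajuba*, a LIM protein (-0.26, -0.39 to -0.14).

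Of 23 tested mesenchymal genes linked to EMT, 19 were below 0, against 51.8% of all tested genes, with a median of -0.12. By at least 1.5-fold 3 were lower and 0 higher, near the background of 11.7% and 6.33%. The list shares 5 genes with the fibroblast list, whose part in it was not tested. *Sparc*, a matrix glycoprotein, had 30464 counts in Ctrl basal and 28866 in CL basal (-0.08, -0.10 to -0.06), and *Cd44*, the hyaluronan receptor, had 16204 and 15580 (-0.06, -0.09 to -0.03). The lower genes were the collagen crosslinking enzyme *Loxl2* (639 and 410 counts, -0.64, -0.83 to -0.46), the gelatinase *Mmp9* (202 and 130 counts, -0.63, -0.97 to -0.31) and the scarce fibroblast gene *Fap* (46 and 22 counts), the last picked out after its values were seen. *Vcan*, a matrix proteoglycan picked out in the same way, went the other way (1466 and 2200 counts, 0.58, 0.49 to 0.68).

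The epithelial genes that EMT factors oppose held the larger differences. Of 27 tested genes, 9 were lower and 1 was higher by at least 1.5-fold, against 11.7% and 6.33% of all tested genes. By at least 2-fold 4 were lower and 0 higher, against 4.79% and 2.07%. The median was -0.31, with 19 genes below 0 and 8 above, while 51.8% of all tested genes were below 0. Among those above 0, picked out after their values were seen, were the abundant *Klf4* (15924 and 18914 counts, 0.24) and *Tjp1* (8758 and 10095 counts, 0.20). *Epcam*, an epithelial adhesion molecule, had 40023 counts in Ctrl basal and 33600 in CL basal (-0.26, -0.28 to -0.24), and the desmosomal *Dsp* had 86733 and 85923 (-0.02, -0.03 to -0.004). The genes lower by 2-fold were the tight junction proteins *Cldn7* (476 and 187 counts, -1.34, -1.60 to -1.10), *Cldn4* (5238 and 2148 counts, -1.29, -1.36 to -1.22) and *Cldn3* (644 and 308 counts, -1.06), and the trafficking protein *Rab25* (96 and 43 counts, -1.13). *Cldn3* and *Rab25* were picked out after their values were seen. These 4 genes are known from luminal cells too, and the part of the lower luminal list in them was not tested. *Grhl3*, an epidermal factor picked out in the same way, was the gene that was higher (0.73, with 37 and 63 counts). The 5 genes of the miR-200 family, whose microRNAs repress *Zeb1* and *Zeb2*, had 0 counts in both libraries. Gene counts of this kind do not measure the mature microRNAs.

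The E-box that Snail and Zeb zinc fingers bind, CAGGTG on one strand and CACCTG on the other, was looked for in RefSeq promoter windows (GRCm38.p6, 250 bases before to 50 after a start), of which 20.2% held it. Windows were found for 5 of the 10 genes. That of *Snai1* held the E-box and those of *Zeb2*, *Twist1*, *Twist2* and *Vim* did not. *Snai2*, *Zeb1*, *Cdh1*, *Cdh2* and *Cdh3* had no window. By gene, with any of its windows counted, 22.6% of 27025 genes held the E-box. Among the epithelial list it was 14 of 19 genes (73.7%), and among the mesenchymal list it was 1 of 15 (6.67%, the gene *Sparc*). It was 4 of 13 among catenins and junction partners and 0 of 12 among other transcription factors linked to EMT. Of the 28 listed epithelial genes, only 19 had a window. The epithelial list was chosen as genes that EMT factors oppose, so its share is not independent of that choice. A match describes letters and is not a binding site. The promoter of *Snai1* is printed because it is the one of the 10 genes with a match. Those of *Cldn4* and *Cldn7* are 2 examples from the 4 epithelial genes lower by 2-fold, of which *Cldn3* and *Rab25* also held the E-box. In the epithelial list the E-box did not go only with lower values. *Grhl3* (0.73) and *Dsp* (-0.02) held it, while *Spint1* (-0.66) did not, all 3 picked out after their values were seen. A link of the E-box to the differences was not tested. Each is given on the strand of its gene, from 250 bases before to 30 after the start, with the E-boxes in capitals.
Snai1 (chr2:167537945-167538224, plus strand): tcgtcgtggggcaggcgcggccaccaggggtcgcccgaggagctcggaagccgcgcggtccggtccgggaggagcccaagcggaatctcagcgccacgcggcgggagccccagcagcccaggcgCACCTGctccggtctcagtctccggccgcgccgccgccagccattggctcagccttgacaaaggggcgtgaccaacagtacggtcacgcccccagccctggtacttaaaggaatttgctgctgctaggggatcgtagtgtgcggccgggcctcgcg
Cldn4 (chr5:134946905-134947184, minus strand): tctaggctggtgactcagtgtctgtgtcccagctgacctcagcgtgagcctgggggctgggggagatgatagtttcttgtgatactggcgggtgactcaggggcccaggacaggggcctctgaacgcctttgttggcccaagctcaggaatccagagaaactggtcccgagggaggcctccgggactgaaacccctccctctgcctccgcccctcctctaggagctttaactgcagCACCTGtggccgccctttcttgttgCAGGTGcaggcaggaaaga
Cldn7 (chr11:69965171-69965450, plus strand): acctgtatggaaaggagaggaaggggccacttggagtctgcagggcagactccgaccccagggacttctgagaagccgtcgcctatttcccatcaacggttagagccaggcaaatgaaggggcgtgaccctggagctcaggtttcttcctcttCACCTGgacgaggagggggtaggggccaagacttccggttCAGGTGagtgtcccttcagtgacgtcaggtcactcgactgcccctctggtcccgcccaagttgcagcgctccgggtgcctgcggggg

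The E-box of *Snai1* begins 126 bases before the start. *Cldn4* has one 14 bases before its start and another 11 bases after it, and *Cldn7* has them 97 and 57 bases before the start of the printed window. *Cldn7* has 2 windows, for 2 starts, and the other one does not hold the E-box. The levels beside these sequences were 1.42 and 1.43 RPKM for *Snai1*, 75.2 and 30.8 for *Cldn4* and 6.37 and 2.497 for *Cldn7*, in Ctrl basal and CL basal.

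**Figure D5:**
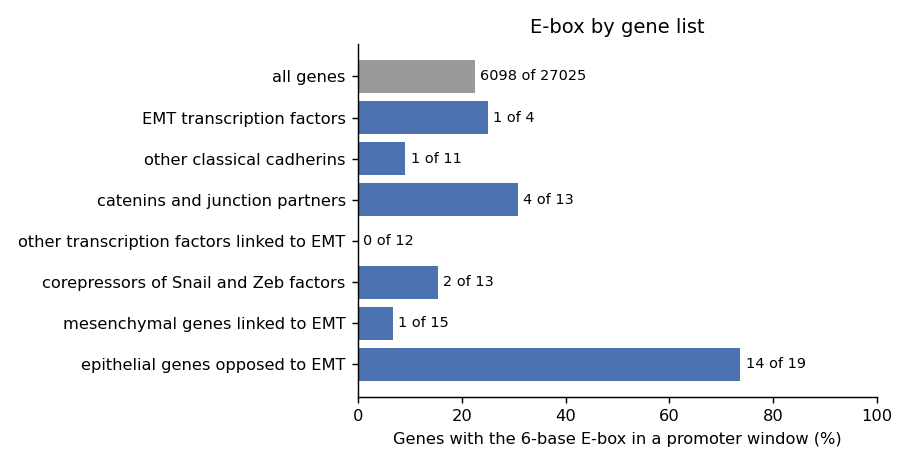
Percent of the genes of each list that have the 6-base E-box in a RefSeq promoter window, with the number of genes, and all genes in grey (22.6%). The epithelial list, chosen as genes that EMT factors oppose, stands at 14 of 19 genes and the mesenchymal list at 1 of 15.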

How the data were processed

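The deposited values were raw read counts per gene over annotated exons, made by the authors with 1 column per library and with exon coordinates and exonic length per gene, in the layout of featureCounts. The submitters' processing notes name GRCm38 (mm10). The aligner, the annotation release and the use of strand were not given in the sources used here. A deposited ratio of the libraries and its log2 were not used. Low counts were more often even than odd (67.9% of the Ctrl basal values up to 20, and 68.7% of the CL basal ones, were even), so mates of a pair may have been counted separately.

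Counts were scaled by TMM in edgeR 4.0.16 (R 4.3.3) on genes whose summed count reached 20, with factors of 1.013 for Ctrl basal and 0.987 for CL basal. Log2 fold changes used a prior count of 2. Intervals of 95% are exact, binomial for fold changes and shares and Poisson for levels (scipy 1.17.1). A limit of 3 counts behind a count of 0 is 0.078 CPM. Formulas were tested on simulated data. The genes and gene lists were chosen with earlier results of these data known. All 10 genes are named, and from each related list the 2 with most counts and the 2 with the largest change among those with at least 100 counts. Genes that share exons with them are named too. With 2 libraries, no likeness of pattern between genes could be measured. Alternatives were other scalings (total counts, DESeq2 1.42.0 size factors, upper quartile), prior counts, filters, halved or thinned counts, and removal of a trend on mean expression.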

Additional observations from a re-analysis of the deposited data

How the results depend on the processing

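Of 80 values of the 10 genes under alternatives, 74 stayed within the main 95% interval, and the other 6 belonged to abundant genes with narrow intervals (*Snai2*, *Vim*, *Cdh1* and *Cdh3*). List medians near 0 changed sign under some alternatives, running from -0.12 to 0.01 for the 10 genes, from -0.12 to 0.07 for other EMT factors, from -0.03 to 0.04 for corepressors and from -0.05 to 0.11 for other cadherins. Those of the catenin, mesenchymal and epithelial lists stayed below 0 under each. The number of genes past 1.5-fold was 1 in place of 0 with scaling by total counts, since *Twist2* then passed narrowly at -0.60. It was 0 under the other alternatives, and the number past 2-fold was 0 under each. Across alternatives *Zeb2* ran from -0.51 to -0.46, *Zeb1* from -0.35 to -0.30, *Cdh2* from -0.42 to -0.35, *Snai2* from 0.12 to 0.20, *Cdh3* from 0.09 to 0.18 and *Cdh1* from -0.20 to -0.11. Only *Snai1* (-0.03 to 0.11) and *Vim* (-0.04 to 0.05) changed sign. Counts per kilobase in place of counts moved the share of *Snai2* among the 6 factors to 84.9% (Ctrl basal) and 87.8% (CL basal), since the Zeb genes are longer, and the share of *Cdh3* among the 3 cadherins to 23.8% and 27.7%. No paired analysis was possible because there was only 1 library in either group. Precision was lowest for *Snai1*, *Twist1* and *Twist2*, with 80 to 182 summed counts.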

Other observations

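Lists that stood in no comparison above are given as values. Lymphocyte markers summed to 225 counts in Ctrl basal and 227 in CL basal (median log2 fold change 0.04 over 8 tested genes). Schwann cell markers, among them *Sox10* and *Mbp*, summed to 6823 and 6670 counts (median -0.11 over 5). Of 6 tested epidermal markers (median 1.33), 4 were higher in CL basal by at least 1.5-fold, against 6.33% of all tested genes, and 2 were lower, against 11.7%. The higher genes were *Krt1* (19 and 367 counts), *Krt10* (38 and 262), *Calml3* (24 and 93) and *Lor* (18 and 33), and the lower ones were *Sbsn* (1196 and 615) and *Ivl* (28 and 17), all named after their values were seen.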
